A study of Homo sapiens with 6 samples.

Results

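The genes described here encode Wnt ligands, their receptors and the intracellular regulators that carry or damp the signal. A list of 54 gene symbols was matched by exact symbol to a table of 25268 symbols, and all 54 were found. The list holds 17 Wnt ligands, 10 Frizzled receptors, 5 co-receptors or other Wnt receptors, 4 genes of the R-spondin and Frizzled-turnover arm, 5 scaffolds of the destruction complex, 7 Dishevelled proteins and binding partners, 4 TCF/LEF factors and 2 genes for ligand processing and secretion. Secreted antagonists of the DKK and SFRP families are not part of it.

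RNA was sequenced from A673, an established Ewing sarcoma cell line with the EWSR1-FLI1 gene fusion. All cells were transfected for 72 h with an esiRNA, a pool of short interfering RNAs made by enzymatic digestion of a long double-stranded RNA. The control group received esiGFP, the second group esiFLI1, which targets the FLI1 part of the fusion transcript, and the third group esiUSP9X, which targets the deubiquitinase USP9X. Each group had 2 libraries, numbered 1 and 2, and every library came from this single line. The series addresses whether USP9X keeps the EWS-FLI1 protein stable. The labels do not say that the replicates were separate cultures, so the spread that the p-values measure is only that between these samples, which may be technical.

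Wnt proteins are lipidated by PORCN, carried to the cell surface by WLS and bound there by a Frizzled together with LRP5 or LRP6. The signal passes through Dishevelled and inhibits a destruction complex built on AXIN and APC, so that beta-catenin accumulates and activates genes through TCF/LEF factors. R-spondins bind LGR receptors and draw away ZNRF3 and RNF43, ubiquitin ligases that remove Frizzleds from the surface. ROR1, ROR2 and RYK serve beta-catenin-independent responses to ligands such as WNT5A.

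The values are FPKM, fragments divided by transcript length and by the library's mapped fragments, as the authors deposited them. The FPKM of a library added up to 781732 to 907926, with 11310 to 12071 genes at 1 FPKM or more. The depth is unknown, since read counts were not used here, and a value of 0 means only that a gene is listed at 0. A single symbol, MIR6723, held 33.9% and 41.8% of the sum in esiGFP, 35.8% and 50.9% in esiFLI1 and 33.2% and 42.6% in esiUSP9X. The share was higher in each library numbered 2 than in that numbered 1, and within each number it was highest in esiFLI1. The part of MIR6723 in the values of other genes was not tested. FLI1 was 24.1 and 36.4 FPKM in esiGFP, 12.7 and 14.1 in esiFLI1 and 25.0 and 31.9 in esiUSP9X, and USP9X was 20.6 and 26.5 in esiGFP, 26.2 and 37.7 in esiFLI1 and 5.31 and 7.10 in esiUSP9X. Of 8 Ewing sarcoma markers 7 passed the filter, with summed levels of 373 and 381 FPKM in esiGFP, 195 and 175 in esiFLI1 and 442 and 395 in esiUSP9X, while CD99 was listed at 0 in all 6 libraries. None of 5 epithelial and 5 leukocyte markers passed (0 of each list). Their sums reached at most 0.592 and 0.420 FPKM, and CDH1, KRT5, KRT14 and CD3E were listed at 0 throughout. Of 5 endothelial markers only KDR passed. The endothelial sum was between 0.153 and 0.231 FPKM in esiGFP and esiUSP9X and 1.51 and 1.57 in esiFLI1, of which KDR alone was 1.30 and 1.33, and VWF did not exceed 0.00526. The part of such cells in the esiFLI1 results was not tested.

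Of the 54 genes, 33 had at least 1 FPKM in at least 2 libraries and were tested, and 21 did not. The 21 were 16 of the ligands, the receptor FZD10, the ubiquitin ligase RNF43, the Dishevelled-binding protein NKD1 and the TCF/LEF factors LEF1 and TCF7. FZD5 passed only through its esiFLI1 libraries. WNT1, WNT3A, WNT7A, FZD10 and RNF43 were listed at 0 in all 6 libraries, which made 5 such genes. The mean over all libraries reached 10 FPKM for 16 genes. WLS had the highest mean at 53.9 FPKM, followed by FZD1 at 50.4, RYK at 33.6, LGR4 at 30.3, FZD4 at 24.2, LRP6 at 23.7, DVL2 at 22.7 and FZD8 at 20.5.

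Setting esiFLI1 against esiGFP asks what depends on the fusion. The R-spondin receptors LGR5 and LGR4 were higher in both esiFLI1 libraries than in any esiGFP library, and AMER2 and NKD2, which both damp the pathway at the level of APC and Dishevelled, were lower. With the replicate number in the model, FZD2, FZD6, FZD7, ROR2, APC, DACT1, DACT2, TCF7L1 and TCF7L2 were also called higher, and FZD1, the most abundant Frizzled, AXIN1 and DVL1 were called lower. FZD5 was higher too, but it was tested only because of its esiFLI1 level. The ligands stayed low. Changes are given on the log2(FPKM + 1) scale, which understates the change of low genes. They come from limma, fitted over all 12169 genes that passed the filter, with Benjamini-Hochberg adjustment over those genes and a call at adjusted p under 0.05. In bulk RNA, fewer cells of a type and less RNA per cell cannot be told apart.

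Of the 33 tested genes 1, LGR5, was called in limma's fit on the group means alone, against 2.81% of all genes tested (2.58% higher and 0.23% lower). FLI1, the target itself, was not called in that fit (log2 change -1.09, limma adjusted p = 0.13, and 4.4e-04 with the block). Same-numbered libraries deviated together across groups, and a second fit took the replicate number as a block. That blocked fit called 17 of the 33 genes, 12 higher and 5 lower, or 51.5%, against 42.1% of all genes tested (20.6% higher and 21.6% lower). The 12 include FZD5, which passed the filter only through esiFLI1, where it is high, and so had to differ. With quantile normalization in the blocked fit the split was 10 higher and 8 lower, so the share of higher calls went from 70.6% to 55.6%. With no filter on low values the blocked fit called 1 of the 54, LGR4, against 3.08% of all genes, and the other 16 had adjusted p between 0.050 and 0.28 in that fit. Without filter and block limma called 0 of the 54, against 1.57% of all genes called. In that fit 9 of the 54 had an unadjusted p under 0.05, and the share of all genes at that level was not counted. The libraries of both groups did not overlap for 13 of the 33 genes (39.4%, against 37.1% of all genes), 8 of them higher and 5 lower in esiFLI1 (19.8% and 17.3% of all genes). The median log2 change of the 33 genes was 0.11, and that of all tested genes was -0.03; quantile normalization gave 0.0012 and -0.058. The shares of called and of non-overlapping genes lay near or modestly above those of all genes. Of the 17 blocked calls, 8 held in the blocked fit without each of the 6 libraries in turn (FZD5, FZD6, LGR4, LGR5, AMER2, DACT1, NKD2 and TCF7L2), and 9 did not. The share of all genes that held in this way was not counted, so the 8 are no result about these genes. For FZD5, kept through esiFLI1 alone, holding is no support in any case.

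**Figure D1:**
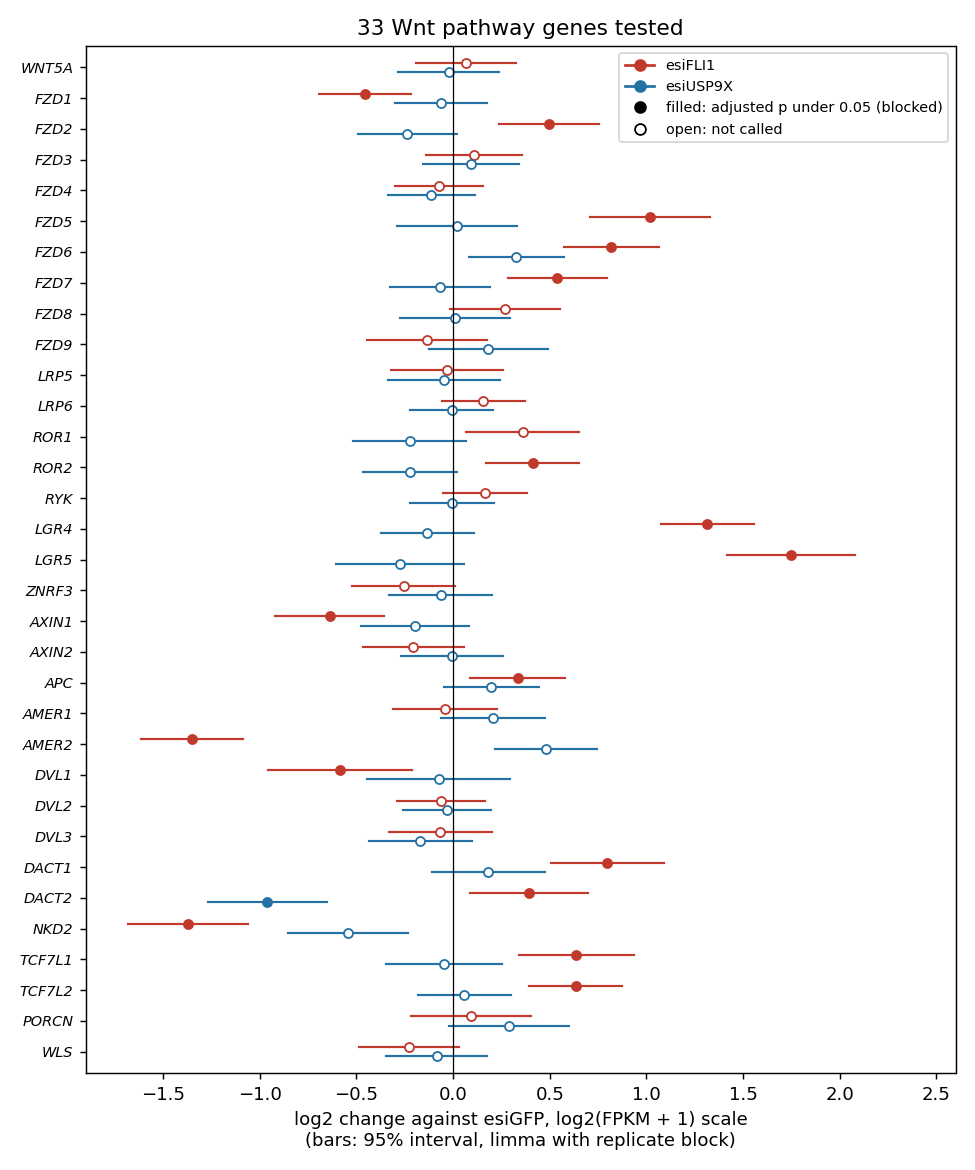
Log2 change against esiGFP on the log2(FPKM + 1) scale for the 33 Wnt pathway genes tested, in esiFLI1 (red) and esiUSP9X (blue). Bars are 95% intervals from limma with the replicate number as a block, and filled points have an adjusted p under 0.05 in that fit. LGR5 and LGR4 lie farthest to the right and NKD2 and AMER2 farthest to the left in esiFLI1, and DACT2 is the 1 filled point in esiUSP9X.

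The ligands were the least abundant group. WNT5A, which mainly drives beta-catenin-independent responses, was the only ligand that passed the filter. It was 2.72 and 4.0 FPKM in esiGFP, 3.01 and 4.10 in esiFLI1 and 2.90 and 3.61 in esiUSP9X. The groups overlapped, with log2 changes of 0.07 in esiFLI1 (blocked 95% interval -0.19 to 0.33) and -0.02 in esiUSP9X (-0.28 to 0.24). WNT5A made up between 30.9% and 72.0% of the summed FPKM of all 17 ligands in a library. That sum was 5.37 and 5.55 FPKM in esiGFP, 9.75 and 7.13 in esiFLI1 and 5.28 and 5.11 in esiUSP9X, so it was higher in both esiFLI1 libraries.

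The higher ligand sum in esiFLI1 came from ligands under the filter. WNT5B, a close relative of WNT5A, was 0.322 and 0.0923 FPKM in esiGFP, 2.03 and 0.935 in esiFLI1 and 0.239 and 0.172 in esiUSP9X. WNT10A was 0.0847 and 0.128 in esiGFP, 1.16 and 0.338 in esiFLI1 and 0.0785 and 0.0583 in esiUSP9X. WNT2B, whose exons overlap a gene on the opposite strand, was 0.146 and 0.0660, 0.498 and 0.178, and 0.0966 and 0.0704 in the same order. For each of these 3 ligands both esiFLI1 libraries lay above the other 4. The same held for WNT7B at a lower level, with 0.0968 and 0.0849 FPKM in esiFLI1 and at most 0.0451 in the other 4. How many of all genes under the filter have this pattern was not counted. In fits without a filter, where all symbols have a value, limma called none of them (0 ligands). WNT5B had a log2 change of 1.01 and an adjusted p of 0.23, and 0.098 with the block (unadjusted 0.0145), while WNT10A had a blocked adjusted p of 0.28 and WNT2B one of 0.26.

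WNT11, which acts in cell movement, was 0.589 and 0.290 FPKM in esiGFP, 1.43 and 0.459 in esiFLI1 and 0.382 and 0.251 in esiUSP9X, with overlap between esiFLI1 and esiGFP. WNT3, a beta-catenin activating ligand, lay between 0.581 and 1.03 FPKM over all libraries, and WNT10B between 0.111 and 0.583. The remaining ligands above 0 (WNT2, WNT4, WNT6, WNT7B, WNT8B, WNT9A and WNT16) did not exceed 0.153 FPKM. At these levels the unknown depth does not allow a difference to be read.

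**Figure D2:**
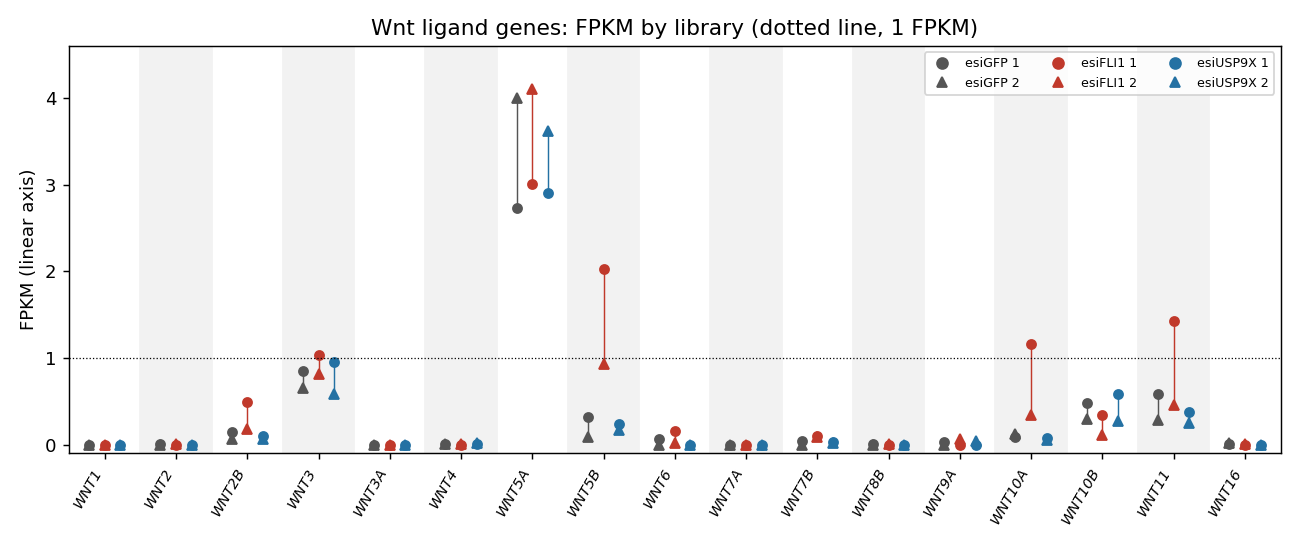
FPKM of the 17 Wnt ligand genes in each library on a linear axis, with circles for replicate 1 and triangles for replicate 2. WNT5A lies between 2.72 and 4.10 FPKM over all 6 libraries, and WNT5B and WNT10A are higher in the esiFLI1 libraries than in the other 4.

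The Frizzled receptors bind the ligands, and 9 of the 10 passed the filter. In the blocked fit 4 were higher in esiFLI1, among them FZD5, whose call is selected by the filter, and 1 was lower. That is 55.6% called, against 42.1% of all genes. Their summed FPKM changed little, with 141 and 109 in esiGFP, 151 and 107 in esiFLI1 and 141 and 105 in esiUSP9X. FZD1, the most abundant, took between 28.2% and 47.2% of that sum, with its lowest share in both esiFLI1 libraries.

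FZD1 was 66.0 and 45.9 FPKM in esiGFP, 52.5 and 30.2 in esiFLI1 and 66.4 and 41.6 in esiUSP9X. Each esiFLI1 library lay below the esiGFP library of its number, although the groups overlapped. FZD1 fell by 0.46 on the log2 scale with the block (limma, SE 0.10, adjusted p = 0.0098, and 0.69 without it), a call lost without esiGFP 2 (0.12) or esiFLI1 2 (0.080).

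FZD5, a receptor at low level, was 0.819 and 0.589 FPKM in esiGFP, 2.88 and 2.06 in esiFLI1 and 0.729 and 0.721 in esiUSP9X. Both esiFLI1 libraries lay above all others, and it rose by 1.02 with the block (limma, SE 0.13, adjusted p = 9.3e-04, and 0.061 without it). Since it passed the filter only through esiFLI1, its call is a selected one. FZD6 was 7.48 and 9.48 FPKM in esiGFP, 12.7 and 19.1 in esiFLI1 and 9.03 and 13 in esiUSP9X. It did not overlap between esiFLI1 and esiGFP and rose by 0.82 with the block (limma, SE 0.11, adjusted p = 9.0e-04, and 0.28 without it).

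FZD7 was 4.92 and 3.77 FPKM in esiGFP, 8.34 and 5.39 in esiFLI1 and 4.94 and 3.34 in esiUSP9X, again without overlap between esiFLI1 and esiGFP. It rose by 0.54 with the block (limma, SE 0.11, adjusted p = 0.0068, and 0.49 without it), and not without esiGFP 1 (0.051) or esiFLI1 1 (0.057). FZD2 was 7.88 and 4.30 FPKM in esiGFP, 11.8 and 6.32 in esiFLI1 and 6.04 and 3.81 in esiUSP9X. Its groups overlapped because both replicate 2 libraries were lower, and within each number esiFLI1 was higher. It rose by 0.50 with the block (limma, SE 0.11, adjusted p = 0.0096, and 0.69 without it), and not without esiFLI1 1 (0.073).

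The other Frizzleds were not called. FZD4, which also serves as the receptor of norrin, was 26.3 and 24.1 FPKM in esiGFP, 26.5 and 21.4 in esiFLI1 and 25.3 and 21.3 in esiUSP9X. FZD8 was 22.4 and 15.3 in esiGFP, 31.4 and 16.1 in esiFLI1 and 23.1 and 15.1 in esiUSP9X, with a log2 change of 0.27 in esiFLI1 (blocked 95% interval -0.01 to 0.55). FZD3 lay between 3.79 and 6.52 FPKM and FZD9 between 0.154 and 1.12, with overlapping groups. An exon of FZD4 overlaps PRSS23 on the opposite strand over 1255 bases in GENCODE v29. Its level is uncertain, because the use of strand in counting is not given in the sources used here.

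Among the co-receptors, LRP5 and LRP6 pair with a Frizzled in the beta-catenin branch. LRP6 was 21.2 and 24.3 FPKM in esiGFP, 23.4 and 27.8 in esiFLI1 and 20.7 and 24.7 in esiUSP9X, and LRP5 lay between 12.3 and 24.6 over all libraries. Neither was called, with log2 changes in esiFLI1 of 0.16 (blocked 95% interval -0.06 to 0.37) and -0.03 (-0.32 to 0.26). RYK, an atypical receptor that binds Wnts, was 30.6 and 34.0 FPKM in esiGFP, 34.4 and 38.5 in esiFLI1 and 31.4 and 32.8 in esiUSP9X. Its esiFLI1 libraries lay above the other 4, but the log2 change of 0.17 was not called (blocked adjusted p = 0.18).

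The receptor tyrosine kinase-like ROR2 was 10.8 and 6.53 FPKM in esiGFP, 14.9 and 8.82 in esiFLI1 and 8.59 and 5.77 in esiUSP9X. It was higher in esiFLI1 within each number and rose by 0.41 with the block (limma, SE 0.10, adjusted p = 0.016, and 0.72 without it). The call ended without esiGFP 1 (0.052), esiGFP 2 (0.10), esiFLI1 1 (0.089) or esiFLI1 2 (0.054). ROR1, its relative, was 2.37 and 3.80 FPKM in esiGFP, 3.75 and 4.61 in esiFLI1 and 2.26 and 2.64 in esiUSP9X. Its groups overlapped between esiFLI1 and esiGFP, and its log2 change of 0.36 was not called (blocked adjusted p = 0.053, and 0.59 without it).

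The R-spondin arm held the largest rises among the 33 genes. The summed FPKM of LGR4, LGR5, ZNRF3 and RNF43 was 32.9 and 33.8 in esiGFP, 81.3 and 92.0 in esiFLI1 and 29.2 and 29.2 in esiUSP9X. LGR5, a receptor for R-spondins and a marker of several adult stem cells, was 10.9 and 6.64 FPKM in esiGFP, 31.8 and 30.2 in esiFLI1 and 7.48 and 6.32 in esiUSP9X. Both esiFLI1 libraries lay well above the other 4. LGR5 rose by 1.75 on the log2 scale in limma's fit without the block (SE 0.27, adjusted p = 0.044) and in the blocked fit (SE 0.14, adjusted p = 1.1e-04). Without the block its call ended when any 1 of the 6 libraries was left out, with adjusted p between 0.12 and 0.23 (0.12 when esiGFP 1 was dropped, 0.23 for esiGFP 2, 0.17 for esiFLI1 1, 0.16 for esiFLI1 2 and 0.14 for either esiUSP9X library). It also ended with a filter of 5 FPKM (0.061), with no filter (0.089; 0.061 with the block) and in a fit of only the 2 groups compared (0.14). In the blocked fit without 1 library its log2 change lay between 1.501 and 1.997. An exon of LGR5 overlaps AC078860.1 on the opposite strand over 124 bases in GENCODE v29.

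LGR4, a broadly expressed R-spondin receptor, was 17.6 and 23.3 FPKM in esiGFP, 45.5 and 59.0 in esiFLI1 and 17.4 and 19.4 in esiUSP9X. Every esiFLI1 value was above every other. LGR4 rose by 1.32 with the block (limma, SE 0.10, adjusted p = 9.5e-05), with 0.062 without the block (SE 0.24). Its blocked call held with no filter. In the blocked fit without 1 library its log2 change lay between 1.251 and 1.381. ZNRF3, the ubiquitin ligase that R-spondins and LGRs counter, was between 2.79 and 4.44 FPKM over the 6 libraries. Its log2 change of -0.25 in esiFLI1 was not called (blocked 95% interval -0.52 to 0.01), and RNF43, its close relative, was listed at 0 in every library. Exons of RNF43 overlap AC004687.2 on the same strand over 2208 bases and TSPOAP1-AS1 on the opposite strand over 1220 in GENCODE v29, so this 0 is uncertain. The third LGR gene, LGR6, did not exceed 0.0549 FPKM in any library.

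Promoter sequences are shown for the genes of limma's calls without the block, in any comparison, that the RefSeq table holds, since EWS-FLI1 binds DNA through the ETS domain of FLI1. They are LGR4, chr11:27472791-27473040, and AMER2, chr13:25172289-25172538, both on the minus strand of GRCh38.p14 and both the 250 bases before the start that RefSeq gives. The RefSeq bases after the start were found in a GENCODE v29 transcript for AMER2 but not for LGR4, so the LGR4 start, and with it the window, is uncertain. LGR5 was the other gene called. Capitals mark GGAA, the core of ETS factor sites, and its reverse complement TTCC.
LGR4: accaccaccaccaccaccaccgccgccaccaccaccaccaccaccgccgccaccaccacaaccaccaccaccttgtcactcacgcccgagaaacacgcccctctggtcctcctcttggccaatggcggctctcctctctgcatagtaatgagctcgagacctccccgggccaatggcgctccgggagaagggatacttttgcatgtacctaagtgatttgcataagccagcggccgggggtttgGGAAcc
AMER2: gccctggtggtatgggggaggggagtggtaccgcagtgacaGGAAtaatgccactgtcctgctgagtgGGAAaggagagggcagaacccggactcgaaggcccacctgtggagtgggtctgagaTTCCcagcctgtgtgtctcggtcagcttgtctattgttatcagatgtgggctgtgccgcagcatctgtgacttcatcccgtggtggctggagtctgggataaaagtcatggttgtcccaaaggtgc
LGR4 had 1 such match and AMER2 had 3. Of the 54 genes, 41 had an entry in the table. Motifs were searched on both strands in the 250 bases before the start. GGAA, added after these promoters had been seen, was found in 36 of the 41 and in 92.8% of all 27305 promoters, with a median of 2 matches per promoter in the 41 and 3 in all. The tandem GGAAGGAA, which contains GGAA in both its repeats, was found in 0 of the 41 and in 2.99% of all promoters. CTTTGA, the core of the TCF/LEF site, was found in 1 of the 41, DACT1, and in 11.4% of all. A match describes the letters in this window and is not a binding site. The authors' files are on another build, and no coordinates were carried between them.

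The destruction complex scaffolds all passed the filter (5 of 5), and in the blocked fit of esiFLI1 1 was higher and 2 were lower (60% called, against 42.1% of all genes). AMER2, a membrane-bound partner of APC that lowers Wnt signalling, was 7.68 and 11.1 FPKM in esiGFP, 2.73 and 3.33 in esiFLI1 and 12.3 and 14.4 in esiUSP9X. The 3 groups did not overlap, with esiFLI1 lowest and esiUSP9X highest. AMER2 fell by 1.35 in limma's blocked fit of esiFLI1 (SE 0.11, adjusted p = 1.3e-04), with 0.063 without the block (SE 0.24). With no filter limma's blocked adjusted p was 0.0501. In the blocked fit without 1 library the log2 change lay between -1.483 and -1.218.

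AXIN1, the rate-limiting scaffold of the complex, was 22.2 and 12.8 FPKM in esiGFP, 12.6 and 8.71 in esiFLI1 and 16.6 and 12.9 in esiUSP9X. Its esiFLI1 libraries lay below the other 4, though the higher of them came close to esiGFP 2. AXIN1 fell by 0.64 with the block (limma, SE 0.12, adjusted p = 0.0046, and 0.48 without it), and was not called without esiFLI1 1 (0.052) or esiFLI1 2 (0.051). APC, which holds beta-catenin in the complex, was 6.73 and 9.90 FPKM in esiGFP, 8.0 and 13.9 in esiFLI1 and 7.71 and 11.7 in esiUSP9X, with overlapping groups. It rose by 0.33 with the block (limma, SE 0.11, adjusted p = 0.038, and 0.78 without it). That call ended without esiGFP 1 (0.071), esiGFP 2 (0.31), esiFLI1 2 (0.20), esiUSP9X 1 (0.059) or esiUSP9X 2 (0.059), and with quantile normalization (0.10).

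AXIN2, both a scaffold and a widely used target gene of beta-catenin, was 2.18 and 2.21 FPKM in esiGFP, 1.77 and 1.77 in esiFLI1 and 2.14 and 2.23 in esiUSP9X. The esiFLI1 values were the lowest, and the log2 change of -0.21 was not called (blocked 95% interval -0.47 to 0.06, adjusted p = 0.18). AMER1, the X-linked relative of AMER2, lay between 1.30 and 2.02 FPKM, with a log2 change of -0.04 (-0.31 to 0.23).

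Of the Dishevelled proteins and their partners 6 of 7 passed the filter. In the blocked fit of esiFLI1 2 were higher and 2 lower (66.7% called, against 42.1% of all genes). NKD2, a Dishevelled-binding antagonist, was 5.01 and 2.32 FPKM in esiGFP, 1.05 and 0.456 in esiFLI1 and 2.72 and 1.52 in esiUSP9X. Both esiFLI1 libraries lay below all others. NKD2 fell by 1.37 with the block (limma, SE 0.13, adjusted p = 2.5e-04, and 0.16 without it). In the blocked fit without 1 library its log2 change lay between -1.537 and -1.207. Its relative NKD1 did not exceed 0.0648 FPKM.

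DACT1, a Dishevelled partner that modulates both branches, was 2.15 and 2.15 FPKM in esiGFP, 4.6 and 4.34 in esiFLI1 and 2.24 and 2.93 in esiUSP9X. Its groups did not overlap, and it rose by 0.80 with the block (limma, SE 0.13, adjusted p = 0.0022, and 0.10 without it). DACT2, of the same family, was 18.3 and 9.27 FPKM in esiGFP, 22.5 and 13.5 in esiFLI1 and 7.31 and 5.28 in esiUSP9X. It was lowest in esiUSP9X, and esiFLI1 and esiGFP overlapped. In esiFLI1 it rose by 0.39 with the block (limma, SE 0.13, adjusted p = 0.045, and 0.77 without it), a call lost without esiGFP 2 (0.42), esiFLI1 1 (0.19) or esiFLI1 2 (0.18) and with quantile normalization (0.054).

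DVL1, one of the Dishevelled proteins that relay the signal from Frizzled, was 22.1 and 8.63 FPKM in esiGFP, 13 and 6.07 in esiFLI1 and 16.1 and 10.7 in esiUSP9X. Its replicates lay far apart in every group, and the groups overlapped. DVL1 fell by 0.58 with the block (limma, SE 0.16, adjusted p = 0.021, and 0.73 without it), a call lost without esiGFP 1 (0.14), esiFLI1 1 (0.12) or esiFLI1 2 (0.17). DVL2 was 29.2 and 17.3 FPKM in esiGFP, 28.8 and 16.0 in esiFLI1 and 27.8 and 17.5 in esiUSP9X, and DVL3 lay between 13.9 and 21.5. Neither was called, with log2 changes of -0.06 (blocked 95% interval -0.29 to 0.16) and -0.07 (-0.33 to 0.20).

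Both TCF/LEF factors that passed the filter were higher in esiFLI1 in the blocked fit (2 of 2, where 20.6% of all genes were called higher). With 2 genes tested, this is no result about the family. TCF7L2, a main partner of beta-catenin on DNA, was 3.55 and 4.62 FPKM in esiGFP, 6.25 and 7.52 in esiFLI1 and 3.85 and 4.73 in esiUSP9X. The esiFLI1 libraries lay above the other 4, and it rose by 0.64 with the block (limma, SE 0.10, adjusted p = 0.0025, and 0.24 without it). TCF7L1, which mostly acts as a repressor, was 12.8 and 6.40 FPKM in esiGFP, 22.1 and 9.67 in esiFLI1 and 11.2 and 6.82 in esiUSP9X. Its groups overlapped, and within each number esiFLI1 was highest. It rose by 0.64 with the block (limma, SE 0.13, adjusted p = 0.0062, and 0.67 without it), and not without esiFLI1 1 (0.061). LEF1 did not exceed 0.146 FPKM and TCF7 lay between 0.444 and 0.775.

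Neither gene for ligand processing and secretion was called, with or without the block. WLS was 56.4 and 59.2 FPKM in esiGFP, 54.4 and 44.4 in esiFLI1 and 55.6 and 53.2 in esiUSP9X. Its log2 change in esiFLI1 was -0.23 (blocked 95% interval -0.49 to 0.03). PORCN was 3.34 and 1.59 FPKM in esiGFP, 4.36 and 1.39 in esiFLI1 and 4.64 and 1.98 in esiUSP9X, with replicates farther apart than groups.

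**Figure D3:**
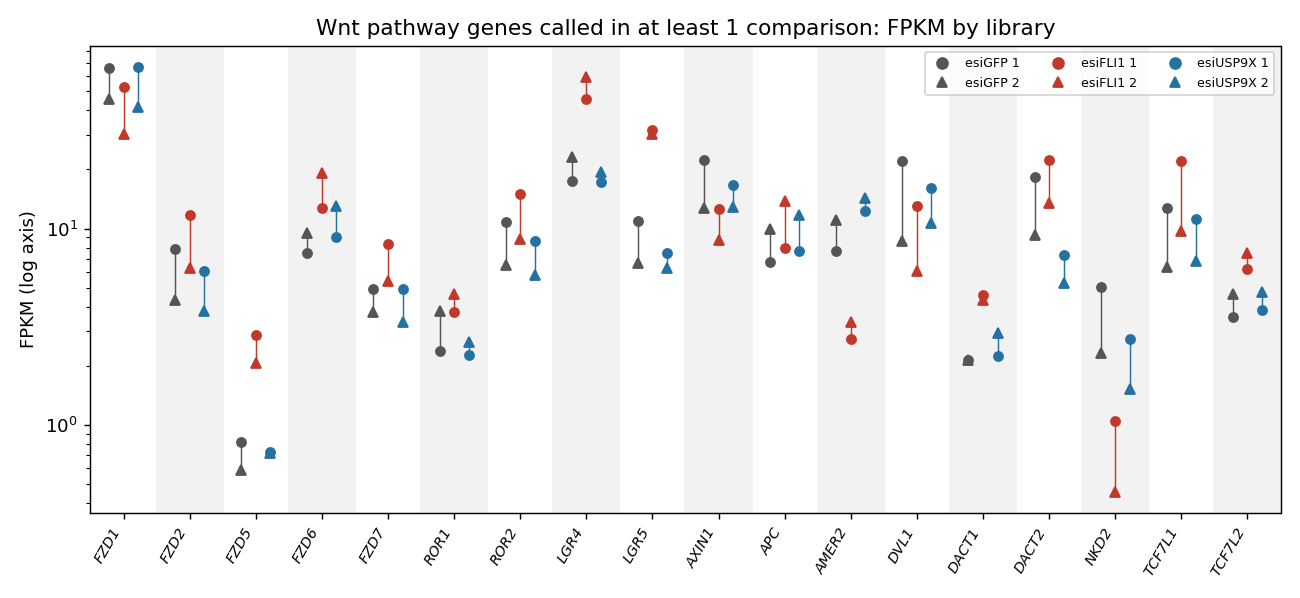
FPKM in each library, on a log axis, of the 18 Wnt pathway genes called in at least 1 comparison in limma's fit with or without the replicate block. Circles are replicate 1, triangles replicate 2, and a line joins the libraries of a group. LGR4, LGR5, FZD5, AMER2 and NKD2 show esiFLI1 libraries apart from the other 4, while DVL1 and TCF7L1 differ more between replicates than between groups.

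Setting esiUSP9X against esiGFP asks what the knockdown of USP9X changes. Of the 33 genes, 31 had a log2 change within 0.5 in either direction, the exceptions being DACT2 and NKD2. The share of all genes within 0.5 was not counted, so this is no result about the pathway. Limma called 0 of the 33 without the block, against 0.0247% of all genes called (0.0247% higher and 0% lower). In that fit 0 of the 33 and 114 of all 12169 genes had an unadjusted p under 0.05. That fit did not call USP9X itself, the target, which fell by 1.77 (limma blocked adjusted p = 4.5e-04). A count of 0 in it therefore does not show a lack of change. With the block limma called 1, DACT2, which was lower, against 0.238% of all genes called (0.074% higher and 0.164% lower). In the blocked fit 4 of the 33 and 1321 of all 12169 genes had an unadjusted p under 0.05. With no filter limma called 0 of the 54 in either fit, against 0.0317% and 0.0119% of all genes called without and with the block. There 3 of the 54 had an unadjusted p under 0.05 without the block and 8 with it. The share of all genes at that unadjusted level was not counted with no filter. The libraries did not overlap for 5 of the 33 genes (15.2%, against 16.6% of all genes), 3 higher and 2 lower in esiUSP9X (8.75% and 7.82% of all genes), and the median log2 change was -0.05 against -0.01 over all genes.

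DACT2, given by library above, fell by 0.96 with the block (limma, SE 0.13, adjusted p = 0.045, and 1 without it). The call ended without esiFLI1 1 (0.30), esiFLI1 2 (0.31), esiUSP9X 1 (0.35) or esiUSP9X 2 (0.11), and with no filter (0.63 with the block). NKD2 had a log2 change of -0.54 (blocked 95% interval -0.85 to -0.24, adjusted p = 0.23), with each esiUSP9X library below the esiGFP library of its number. AMER2 had 0.48 (0.22 to 0.74, adjusted p = 0.21), with both esiUSP9X libraries above both esiGFP ones. FZD6 had 0.33 (0.08 to 0.57, adjusted p = 0.33). None of these 3 was called in either fit.

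Of the 6 genes with the largest absolute changes in esiFLI1, NKD2, AMER2 and FZD6, given above, had blocked intervals in esiUSP9X that did not include 0, without a call. For the other 3, LGR5, LGR4 and FZD5, the intervals included 0. LGR5 had a log2 change of -0.27 (blocked 95% interval -0.61 to 0.06) and LGR4 one of -0.13 (-0.38 to 0.11). FZD5 had 0.02 (-0.29 to 0.33). These intervals bound the change that the 6 libraries allow and do not show that the levels were equal.

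The direct comparison of esiUSP9X with esiFLI1 tests the difference between the knockdowns. It shares its esiFLI1 libraries with the first comparison and its esiUSP9X libraries with the second. AMER2 was higher and LGR5 and LGR4 were lower in esiUSP9X, and these 3 of the 33 genes were called in limma's fit without the block, against 3.08% of all genes (0.419% higher and 2.66% lower). The blocked fit called 17 of 33 (51.5%), 5 higher and 12 lower, against 41.1% of all genes (20.2% higher and 20.9% lower). The 12 include FZD5, which passed the filter only through esiFLI1, where it is high, and so had to differ. FZD5 is also among the non-overlapping genes given below. With quantile normalization in the blocked fit the split was 8 higher and 12 lower, so the share of higher calls went from 29.4% to 40%. With no filter the blocked fit called 2, LGR4 and AMER2, against 3.45% of all genes, and the other 15 had adjusted p between 0.055 and 0.31. Without filter and block limma called 0 of the 54, against 1.72% of all genes called. In that fit 11 of the 54 had an unadjusted p under 0.05, and the share of all genes at that level was not counted. The libraries did not overlap for 16 of the 33 (48.5%, against 39.5% of all genes), 5 higher and 11 lower in esiUSP9X (18.4% and 21.1% of all genes), and the median was -0.10 against 0.02 over all genes.

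AMER2 was 1.83 higher in esiUSP9X than in esiFLI1 on the log2 scale (SE 0.24, limma adjusted p = 0.030; 3.1e-05 with the block). LGR5 was lower by a log2 change of -2.02 (SE 0.27, limma adjusted p = 0.030; 5.6e-05 with the block) and LGR4 by -1.45 (SE 0.24, limma adjusted p = 0.048; 5.9e-05 with the block). Without the block each of the 3 calls ended when any 1 library was left out. The adjusted p then lay between 0.064 (without esiGFP 2) and 0.27 (without esiUSP9X 2) for AMER2, between 0.053 (without esiGFP 2) and 0.26 (without esiUSP9X 2) for LGR5, and between 0.10 (without esiGFP 2) and 0.39 (without esiUSP9X 1) for LGR4. In the blocked fit without 1 library the log2 change lay between 1.761 and 1.903 for AMER2. It lay between -2.2 and -1.846 for LGR5 and between -1.565 and -1.337 for LGR4.

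In the blocked fit the other genes called higher in esiUSP9X than in esiFLI1 were NKD2 (0.83, adjusted p = 0.0023), DVL1 (0.51, 0.036), AXIN1 (0.44, 0.021) and FZD1 (0.39, 0.018). Those called lower were DACT2 (-1.35, limma blocked adjusted p = 2.4e-04), FZD5 (-1.0, 0.0010), FZD2 (-0.73, 0.0018), TCF7L1 (-0.69, 0.0046), ROR2 (-0.63, 0.0025), DACT1 (-0.62, 0.0068), FZD7 (-0.61, 0.0042), ROR1 (-0.58, 0.0084), TCF7L2 (-0.58, 0.0037) and FZD6 (-0.49, 0.0084). FZD5 passed the filter only through esiFLI1, so its call here is a selected one. Of the 17 blocked calls 10 held without each library, among them FZD5, for which this is no support, and 7 did not. The 7 were AXIN1 (up to 0.19, without esiUSP9X 2; 0.12 without esiFLI1 1, 0.10 without esiFLI1 2), DVL1 (up to 0.32, without esiUSP9X 2; 0.15 without esiFLI1 1, 0.22 without esiFLI1 2) and FZD1 (up to 0.12, without esiFLI1 2; 0.11 without esiUSP9X 1, 0.10 without esiUSP9X 2). The others were FZD6 (0.076 without esiFLI1 2, 0.071 without esiUSP9X 1, 0.053 without esiUSP9X 2) and ROR1 (0.072 without esiFLI1 1, 0.060 without esiFLI1 2, 0.085 without esiUSP9X 2). DACT1 was not called without esiFLI1 1 (0.067) or esiUSP9X 1 (0.075), nor TCF7L1 without esiUSP9X 1 (0.056). The share of all genes that held without each library was not counted, so the 10 are no result about these genes. ROR1 was the 1 gene called here and not in esiFLI1 against esiGFP, and APC the 1 gene called there and not here.

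**Figure D4:**
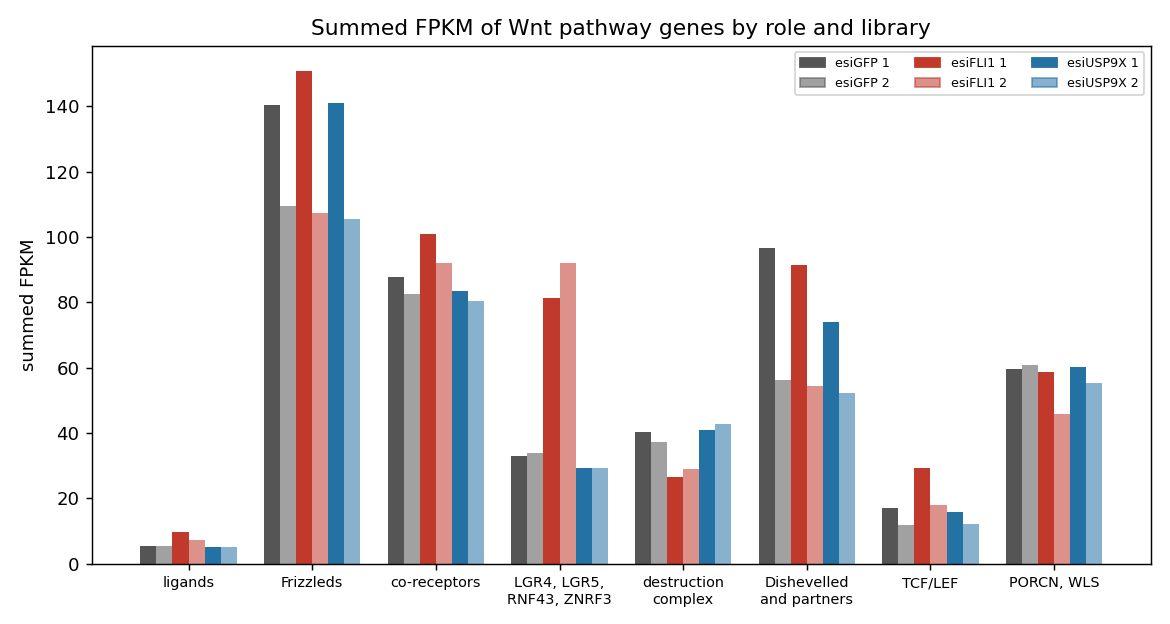
Summed FPKM of the genes of each role in each library, with the darker bar for replicate 1 and the lighter for replicate 2 of a group. The group of LGR4, LGR5, RNF43 and ZNRF3 stands at 81.3 and 92.0 FPKM in esiFLI1 and between 29.2 and 33.8 in the other 4 libraries, and the destruction complex group is lowest in esiFLI1.

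By role, the destruction complex scaffolds summed to 40.5 and 37.3 FPKM in esiGFP, 26.6 and 29 in esiFLI1 and 40.8 and 42.9 in esiUSP9X. The co-receptors summed to 87.8 and 82.6, 101 and 91.9, and 83.5 and 80.4 in the same order, highest in esiFLI1. The TCF/LEF factors summed to 17.2 and 11.8, 29.2 and 17.9, and 15.8 and 12.1. The Dishevelled group differed more between replicates than between groups, with 96.7 and 56.2, 91.4 and 54.3, and 74.0 and 52.3.

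The rest of the pathway was followed in 5 further lists with 69 genes, of which 51 passed the filter. In esiFLI1 limma called 1 higher and 1 lower without the block, and 16 higher and 7 lower with it (45.1%, against 42.1% of all genes). The 1 higher without the block was CD44, which passed the filter only through esiFLI1 and so had to differ. The 16 include CD44 and RSPO3, both described below, which passed only through knockdown libraries. Their calls are selected. The median log2 change of the 51 was 0.14. In esiUSP9X limma called 0 of the 51 in either fit, against 0.0247% of all genes without the block and 0.238% with it. Of the 51, 1 had an unadjusted p under 0.05 without the block and 5 with it, against 114 and 1321 of all 12169 genes. The 1 gene was RSPO3, which is also among the 5. It passed the filter only through 1 library of each knockdown, so it is selected here too.

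Among 11 tested target genes of beta-catenin 8 were called in the blocked fit of esiFLI1 (72.7%, against 42.1% of all genes), 4 in each direction (20.6% of all genes were called higher and 21.6% lower). CD44, a hyaluronan receptor, was 0.223 and 0.174 FPKM in esiGFP, 4.51 and 4.99 in esiFLI1 and 0.0751 and 0.185 in esiUSP9X. It rose by 2.26 in limma's fit (SE 0.14, adjusted p = 0.0073), but it passed the filter only through esiFLI1, so this call and its place among the 8 are selected. CCND1, a cyclin of the G1 phase, was 472 and 459 FPKM in esiGFP, 220 and 204 in esiFLI1 and 413 and 394 in esiUSP9X, and fell by 1.13 (SE 0.15, limma adjusted p = 0.033). LBH, a transcription cofactor, fell by 1.69 and MYC, a growth-promoting transcription factor, by 0.85 in limma's blocked fit (adjusted p = 1.2e-04 and 5.3e-04; 0.088 and 0.16 without the block). The classic target genes did not move in a single direction.

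Of 12 tested genes of the destruction complex and beta-catenin turnover, 3 were higher and 1 was lower in the blocked fit of esiFLI1 (33.3% called, against 42.1% of all genes). CTNNBIP1, which blocks beta-catenin from binding TCF, rose by 0.87 (limma blocked adjusted p = 0.0015), the kinase GSK3B by 0.50 (0.0051) and the tankyrase TNKS, which marks AXIN for degradation, by 0.38 (0.017), while GSK3A fell by 0.36 (0.033). CTNNB1, the gene of beta-catenin itself, chosen after its values were seen, was 54.5 and 59.0 FPKM in esiGFP, 66.7 and 66.4 in esiFLI1 and 58.4 and 58.1 in esiUSP9X. Its log2 change of 0.23 in esiFLI1 was not called (blocked adjusted p = 0.088). RNA does not show the level or place of the beta-catenin protein.

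Of 9 tested planar cell polarity genes 5 were higher and 2 lower in the blocked fit of esiFLI1 (77.8% called, against 42.1% of all genes). DAAM2 and DAAM1, formin-family partners of Dishevelled, rose by 0.84 and 0.51 (limma blocked adjusted p = 0.0021 and 0.011), the receptor PTK7 rose by 0.54 (0.0039), and the scaffold SCRIB fell by 0.88 (0.0015). Of 7 tested extracellular and membrane modulators 2 were higher (28.6%, against 20.6% of all genes called higher). These were KREMEN1, a receptor for DKK proteins, by 0.79 (limma blocked adjusted p = 0.0041), and RSPO3, an R-spondin that binds LGR4 and LGR5, by 0.56 (0.015). RSPO3 was 0.329 and 0.329 FPKM in esiGFP, 0.770 and 1.16 in esiFLI1 and 0.716 and 1.12 in esiUSP9X, so it was low throughout. It passed the filter only through 1 library of each knockdown, and its call against esiGFP is a selected one, with no call in esiUSP9X (0.52, limma blocked adjusted p = 0.27). Of 12 tested nuclear co-regulators 2 were higher (16.7%, against 20.6% of all genes called higher), the corepressor TLE4 by 0.45 (limma blocked adjusted p = 0.012) and the coactivator PYGO1 by 0.41 (0.037). None of these 12 genes of the last 4 lists was called in limma's fit without the block, where their adjusted p lay between 0.22 and 0.67 and only RSPO3 and TLE4 had an unadjusted p under 0.05 (0.025 and 0.046).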

How the data were processed

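RNA from 6 libraries of A673 cells was sequenced after ribosomal RNA depletion, with stranded single-end reads of 75 nt from 2 µg of total RNA, per the labels' protocols. The deposited table holds FPKM made by the authors, and TopHat, Cufflinks, Cuffdiff, hg19 and GRCh37 are named in the submitters' processing notes. Genes with overlapping exons are uncertain, because versions, roles, annotation and strand use in counting were not given in the sources used here, and LRP5 has a near copy, LRP5L. In GENCODE v29 exons of APC, AXIN2, DACT1, DVL1, FZD8 and RNF43 overlap another gene on the same strand. Of the table, 1 stray line was dropped, and 0 columns belonged to no sample. Ratios of values under 0.05 FPKM were searched for the steps that whole reads leave, in bins of 0.01 on the log2 scale, and the fullest bin held 3.82%, so no depth was inferred and no counting interval is given.

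The model was limma 3.58.1 under R 4.3.3 (lmFit, eBayes with a trend) on log2(FPKM + 1), with 3 group means over all 6 libraries, two-sided tests and Benjamini-Hochberg adjustment over the 12169 genes that reached 1 FPKM in 2 or more libraries. The fit had 3 residual and 2.21 prior degrees of freedom, and 2 and 5.72 with the block. With the block and 1 library left out, fewer residual degrees of freedom remain. A call that held in such a fit rests largely on the spread taken from other genes and is weak support. The labels give replicate numbers without saying what they share. Deviations from the group means correlated between same-numbered libraries by 0.647 (esiGFP and esiFLI1), 0.589 (esiGFP and esiUSP9X) and 0.644 (esiFLI1 and esiUSP9X), so the pairing rests on the data and not on the design. The procedure was tested on simulated data, whose replicate effect and spread were taken from a fit of these data with the replicate number. The simulation therefore cannot show that the pairing is right.

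The genes, their roles and the other lists were chosen with earlier results of these data known. Values are given by library for each gene called in either fit of any comparison and for the 8 genes with the highest mean. Of the other Wnt pathway lists, up to 4 called genes with the smallest adjusted p are named, with FLI1 and USP9X as checks of the targets. Promoters came from RefSeq, and overlapping exons from GENCODE v29, both on GRCh38. Alternatives were the block, a pseudocount of 0.1, no filter, a filter of 5 FPKM, quantile normalization, only the groups compared, and leaving out each library.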

Additional observations from a re-analysis of the deposited data

How the results depend on the processing

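The count of called Wnt pathway genes depended on the replicate block. Without the block the counts were 1 (esiFLI1 against esiGFP), 0 (esiUSP9X against esiGFP) and 3 (esiUSP9X against esiFLI1), and with it 17, 1 and 17. Block and quantile normalization gave 18, 1 and 20, and block and pseudocount 0.1 gave 17, 1 and 17. Without the block the first count was 0 with no filter, with a filter of 5 FPKM and with only the 2 groups compared, and the third was 0 with no filter and with only the 2 groups. Leaving out each library gave 0 in all 3 comparisons without the block in limma, with 5 to 8, 0 to 1 and 4 to 8 genes at an unadjusted p under 0.05. With it, leaving out esiGFP 1, esiGFP 2, esiFLI1 1, esiFLI1 2, esiUSP9X 1 and esiUSP9X 2, in this order, gave 13, 14, 10, 12, 16 and 16 for the first comparison, 1, 3, 0, 0, 0 and 0 for the second and 17, 17, 13, 13, 13 and 12 for the third. Over all genes tested the counts were 342, 3 and 375. They were 5125, 29 and 4996 with the block, 4710, 34 and 4863 with block and quantile normalization, and 5104, 26 and 4969 with block and pseudocount 0.1. With block and no filter, a setting chosen after seeing the data, they were 779, 3 and 872. Without the block, a filter of 5 FPKM gave 139 for the first and 154 for the third, only the 2 groups compared gave 56 and 69, and no filter gave 8 for the second. Leaving out each library gave 2 to 136, 3 to 5 and 3 to 148 without the block. In the same order they were 4310, 3469, 3679, 2640, 4670 and 4663 with the block for the first, 211, 271, 10, 9, 16 and 13 for the second and 5378, 5370, 3623, 2637, 2724 and 2852 for the third. Without the block and without 1 library, 3 small log2 changes in esiFLI1 turned: APC (-0.029 without esiFLI1 2, up to 0.70 without esiFLI1 1), DACT2 (-0.060 without esiGFP 2, up to 0.85 without esiGFP 1) and DVL1 (0.046 without esiGFP 1, down to -1.22 without esiGFP 2). With 1 library left in an arm, that library is assumed to vary like the other groups. The cause of these differences was not tested. Unknown depth limits what can be said of genes under the filter.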

Other observations

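The replicate number moved with the level of most genes tested here. Of the 33 tested genes, 20 were lower and 11 higher in replicate 2 than in replicate 1 in all 3 groups, and 2 were mixed. The same count was not made over all genes. Over all 12169 tested genes the replicate deviations correlated between groups by 0.589 to 0.647, so the pattern is not shown to be particular to these 33. FZD1, FZD2, LRP5, DVL1, DVL2, DACT2 and TCF7L1 were among those lower in each replicate 2 library, and FZD3, FZD6, LRP6, RYK, LGR4, APC and TCF7L2 among those higher. What the number stands for is not given in the sources used here.

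BCL9, a coactivator that links beta-catenin to PYGO proteins, was chosen after its values were seen. It was 7.88 and 7.86 FPKM in esiGFP, 9.10 and 7.52 in esiFLI1 and 8.82 and 8.53 in esiUSP9X, and was called in neither fit of either knockdown against esiGFP. PRICKLE1, a planar cell polarity gene under the filter, also chosen after its values were seen, was 0.242 and 0.240 FPKM in esiGFP, 0.869 and 0.727 in esiFLI1 and 0.178 and 0.215 in esiUSP9X.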
